A study of Homo sapiens with 11 samples.

Results

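The 7 genes VIL1, TSPAN8, KRT20, FER1L6, ADH1C, C9orf152 and VTCN1 were selected by their gene symbols from RNA-seq tables of 2 lung cancer cell lines. The symbols had been chosen from A549 values, as genes high in 1 of the 3 A549 libraries. The A549 table lists 21316 genes and holds all 7 of them. The H1299 table lists 20915 genes and holds 5. In A549, levels are given for shMETTL3 library 1, shMETTL3 library 2 and the shGFP library. In H1299 the same 3 kinds of library are given. Each line thus has 2 libraries of cells with an shRNA against METTL3, the enzyme that writes m6A on mRNA, and 1 library of control cells with an shRNA against GFP. A549 is a lung adenocarcinoma line and H1299 a non-small cell lung carcinoma line grown from a lymph node metastasis, and all cells carried a hairpin. Column headings of the A549 table write the knockdown as shMEL with a number. Whether 1 and 2 number hairpins or repeat cultures, and whether cultures were separate, is not stated in the labels. The wider study also holds m6A immunoprecipitations of the same lines, whose peaks were not used here.

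Epithelial cells of the gut carry a brush border of actin-filled microvilli, a cytoskeleton of simple keratins and a set of surface glycoproteins that mark their differentiation. Villin, encoded by VIL1, bundles and severs the actin filaments of these microvilli. KRT20 is an intermediate filament protein of mature intestinal cells, and pathologists use it to tell tumours of the gut from those of other organs. TSPAN8 is a tetraspanin, a membrane organiser found on gut epithelium and on several carcinomas. ADH1C encodes a class I alcohol dehydrogenase of liver and stomach, which also oxidises retinol. FER1L6 belongs to the ferlins, proteins with calcium-binding C2 domains of which the better known members act in membrane fusion. VTCN1, also called B7-H4, restrains T cells and is best known from ductal epithelia and their tumours rather than from gut. C9orf152 is a little-studied open reading frame. Transcription factors of the CDX family bind promoters of many enterocyte genes.

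Upstream sequences of KRT20, ADH1C and TSPAN8 are shown because, of the 5 members with a window in the RefSeq promoter table (GRCh38.p14), these 3 hold the CDX core. The motif searched, on both strands, was the CDX core TTTATG. Capitals mark its matches. Each sequence gives the 250 bases before an annotated start on the minus strand, 5′ to 3′, namely chr17:40885243-40885492 for KRT20, chr4:99352747-99352996 for ADH1C and chr12:71158000-71158249 for the upstream start of TSPAN8.
KRT20: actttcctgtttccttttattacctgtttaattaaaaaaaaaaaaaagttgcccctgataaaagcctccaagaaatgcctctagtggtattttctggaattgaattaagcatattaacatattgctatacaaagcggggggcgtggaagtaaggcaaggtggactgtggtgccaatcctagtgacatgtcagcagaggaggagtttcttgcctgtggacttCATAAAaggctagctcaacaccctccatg
ADH1C: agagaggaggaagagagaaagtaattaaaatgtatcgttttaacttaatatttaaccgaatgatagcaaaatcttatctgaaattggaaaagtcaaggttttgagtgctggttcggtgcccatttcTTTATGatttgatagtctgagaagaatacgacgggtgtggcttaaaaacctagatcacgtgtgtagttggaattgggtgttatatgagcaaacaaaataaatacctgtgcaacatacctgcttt
TSPAN8: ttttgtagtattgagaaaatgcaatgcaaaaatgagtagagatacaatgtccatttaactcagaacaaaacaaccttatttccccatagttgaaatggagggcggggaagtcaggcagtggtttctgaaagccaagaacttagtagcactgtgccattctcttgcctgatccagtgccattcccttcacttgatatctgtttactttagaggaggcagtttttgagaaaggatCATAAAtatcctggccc
In KRT20 the CDX core begins 29 bases before the start. In TSPAN8 the core begins 17 bases before the upstream start, and in ADH1C 124 bases before the start. A second window of TSPAN8, before a start further downstream, shares that core. Windows of C9orf152 and VTCN1 do not hold it. Of all 35116 windows in the table, 9.64% hold the CDX core. The windows of ADH1C, KRT20 and TSPAN8 have a GC content of 35.6 to 41.2%, against 56.0% for C9orf152, 58.4% for VTCN1 and a median of 58.0% over all windows, and the core is rich in A and T. The matches describe the letters only.

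The deposited value of a gene, its level, is a number of reads divided by 1 factor per library. Factors were 2.8, 3.2 and 3.8 for A549 library 1, library 2 and shGFP, so that 1 read is worth less than 1 unit. Total reads in genes were 14447379, 16504759 and 19966206 in the same order. METTL3 checked the labels: it stood at 231 and 232 in A549 libraries 1 and 2, against 557 in shGFP, and at 123 and 100.2 in H1299 libraries 1 and 2, against 271 in shGFP. A549 library 1 stood apart from the other 2. It was at least 2-fold above both of them at 419 of 17454 genes with a mean level of at least 1 (2.40%), on the log2(level + 1) scale. The same rule held for library 2 at 76 genes (0.435%) and for shGFP at 13 (0.0745%). Library 1 was at least 2-fold below both others at 142 genes (0.814%). The mean runs over all 3 libraries, so that a gene high in library 1 can pass the filter through that library alone. This holds for every count of genes that passed the filter below as well. All 7 members met the first rule, which is how they were chosen, and nothing is read from that count. In bulk libraries, a few cells with much RNA of a gene and many cells with little of it cannot be told apart.

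VIL1, the villin gene, had a level of 33.2 in library 1, 0 in library 2 and 1.32 in shGFP. These are 93, 0 and 5 reads. Library 1 was 25.2-fold above shGFP, with a 95% interval of 10.4 to 79.6 that covers counting error only, as do all intervals below. With no read in library 2, the ratio of library 1 to it was 35.4 when 3 reads were taken as the floor. The counting interval of that ratio began lower, at 28.2, and had no upper end. The gene USP37, which overlaps VIL1 in the RefSeq annotation (GRCh38.p14), stood at 376, 307 and 378 in libraries 1, 2 and shGFP. Relatives of villin had smaller differences. The actin-severing scinderin SCIN stood at 15.4, 4.38 and 4.74 in libraries 1, 2 and shGFP, and gelsolin GSN at 75.0, 31.3 and 32.9. Of 6 villin and gelsolin genes with a mean of at least 1, VIL1 left out, these 2 were at least 2-fold higher in library 1 than in both others. Of all genes, 2.40% were.

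TSPAN8 had a level of 33.2 in library 1, 0.94 in library 2 and 1.58 in shGFP, or 93, 3 and 6 reads. The level in library 1 lay far above both others, which overlapped in their counting intervals. Library 1 was 21.0-fold above shGFP (9.31 to 58.8) and 35.4-fold above library 2 (11.8 to 175). Among 24 other tetraspanins with a mean of at least 1, TSPAN1 (71.1, 18.8 and 12.9) and TSPAN13 (560.4, 187 and 199) were at least 2-fold above both, beside 2.40% of all genes. TSPAN15 (1201, 480.3 and 776) and TSPAN10 (3.93, 9.38 and 5.0) were named by the same rule of size and did not reach it. The median tetraspanin differed from shGFP by 0.11 in library 1 and 0.13 in library 2 (log2), where all genes had medians of 0.02 and -0.01.

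KRT20 was the member with the highest level outside library 1. Its level was 56.1 in library 1, 3.13 in library 2 and 4.21 in shGFP, from 157, 10 and 16 reads. The ratio was 13.3 to shGFP (7.95 to 23.9) and 17.9 to library 2 (9.50 to 38.2), the smallest of the ratios to shGFP among the 7. Of other keratins of simple epithelium, KRT7 and KRT19 were abundant in all 3 libraries, while KRT23 stood at 0.71, 0 and 0.26 in libraries 1, 2 and shGFP. KRT19 stood at 1396, 427 and 422, while KRT7 stood at 15220.4 in library 1, 16843 in library 2 and 17021 in shGFP. KRT19 thus lay above both in library 1 and KRT7 below both. Against the mean of library 2 and shGFP, KRT8 and KRT18 differed by 0.50 and 0.40 in library 1 (log2).

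FER1L6 had the largest ratio to shGFP of the 7. It had 309 reads in library 1 and 4 and 5 in library 2 and shGFP, for levels of 110.4, 1.25 and 1.32. Library 1 was 83.9-fold above shGFP (35.6 to 260.1) and 88.3-fold above library 2 (34.1 to 326). The interval of the ratio to shGFP overlapped those of VIL1, TSPAN8, ADH1C and VTCN1, but not those of KRT20 and C9orf152. The genes were chosen on these values, so nothing is read from their order. A pair of antisense genes overlaps FER1L6 in the RefSeq annotation (GRCh38.p14). No label or file used here gives the strand setting of the counts, so that reads of overlapping genes may not have been told apart. FER1L6-AS1 stood at 0, 0.31 and 0.53 in libraries 1, 2 and shGFP, and FER1L6-AS2 at 1.79, 0 and 0.26. The other ferlins with a mean of at least 1 did not meet the 2-fold rule: myoferlin MYOF stood at 5178, 3503 and 4084, FER1L4 at 152.1, 158 and 71.1, and FER1L5 at 1.07, 2.19 and 0.53.

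ADH1C had a level of 45.0 in library 1, 1.25 in library 2 and 1.32 in shGFP, from 126, 4 and 5 reads. The ratio was 34.2 to shGFP (14.3 to 107) and 36.0 to library 2 (13.7 to 134). Its near-identical neighbours ADH1A (2.86, 0 and 0) and ADH1B (1.79, 0 and 0.26) were also highest in library 1. The counting could have split reads among the 3 copies, so the value of each is uncertain. ADH5, the class III enzyme that every cell uses to clear formaldehyde, stood at 1029, 1098 and 1076, and ADH4 at 3.93, 4.69 and 4.21. ADH6, another enzyme of the family, stood at 5.0, 0.94 and 2.37. None of the 3 genes ADH4, ADH5 and ADH6 met the 2-fold rule.

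C9orf152 had a level of 71.8 in library 1, 1.56 in library 2 and 3.95 in shGFP, or 201, 5 and 15 reads. It was 18.2-fold above shGFP in library 1 (10.8 to 33.1) and 45.9-fold above library 2 (19.4 to 143). VTCN1 had the lowest level in library 1, 17.1 from 48 reads, with 0 in library 2 and 0.26, or 1 read, in shGFP. Its ratio to shGFP was 65.1, but with 1 read below the line the interval ran from 11.1 to 2626. Against library 2 its ratio was 18.3 at the floor of 3 reads, with a counting interval that began at 14.3. Other B7 family genes did not meet the 2-fold rule (0 of 7 with a mean of at least 1). HHLA2 stood at 5.0, 3.13 and 3.42, NCR3LG1, a ligand of natural killer cells, at 138, 88.1 and 114, C10orf54, the checkpoint protein VISTA, at 361, 222.5 and 317, and CD274, the checkpoint ligand PD-L1, at 1.07, 2.81 and 1.05.

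**Figure D1:**
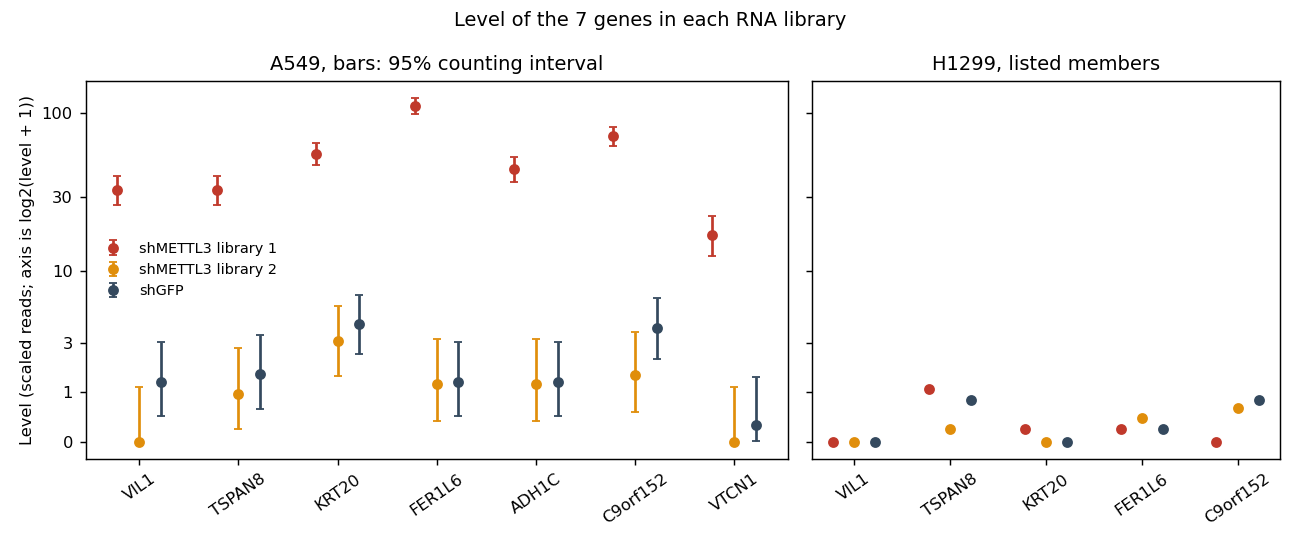
Level of each gene per library, on an axis of log2(level + 1), in A549 with 95% counting intervals (left) and in H1299 for the 5 listed genes (right). The 2 tables were scaled separately. In A549 library 1 the 7 levels run from 17.1 to 110.4, above every point of library 2 and shGFP, and in H1299 no level exceeds 1.1.

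**Figure D2:**
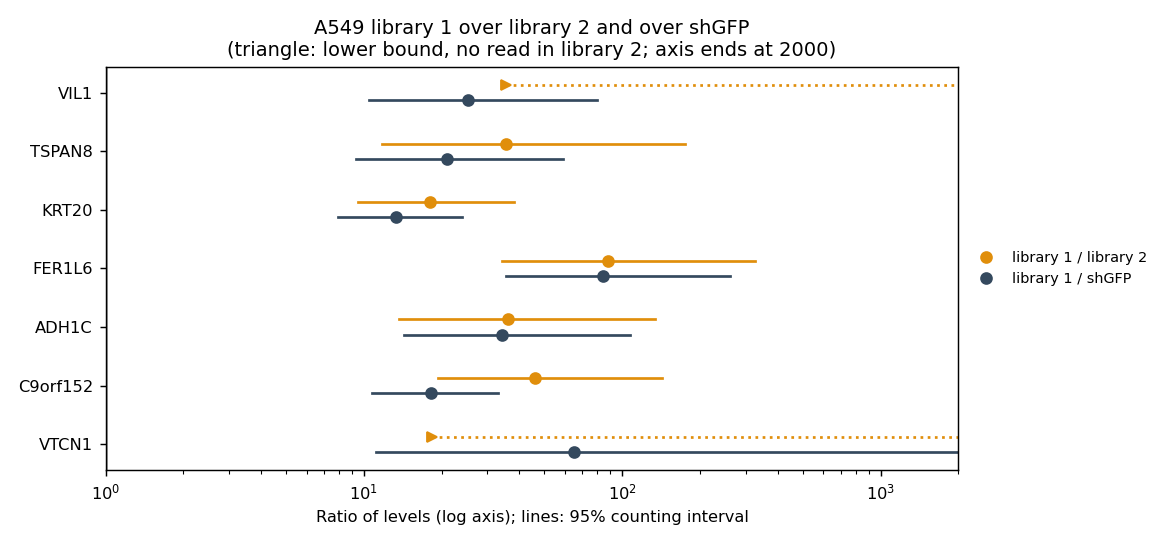
Ratio of the level in A549 library 1 to that in library 2 and in shGFP, on a log axis, with 95% counting intervals. Triangles, marked as lower bounds, take 3 reads as the floor for VIL1 (35.4) and VTCN1 (18.3), which had no read in library 2. The counting intervals of these ratios began lower, at 28.2 and 14.3. The interval of VTCN1 over shGFP runs past the end of the axis. The ratios to shGFP lie between 13.3 for KRT20 and 83.9 for FER1L6.

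Summed over the 7 genes, the level was 367 in library 1, 8.13 in library 2 and 13.96 in shGFP, from 1027, 26 and 53 reads. Without FER1L6 the sums were 256, 6.88 and 12.6. The median difference of the members was 3.88 between library 1 and shGFP and 4.35 between library 1 and library 2 (log2). Differences between library 2 and shGFP ran from -0.04 for FER1L6 and ADH1C to -1.21 for VIL1. The genes were chosen from all 3 libraries as high in 1 of them, which fixes these medians and the low levels of library 2, so that nothing is read from either. The values of library 2 rest on at most 10 reads a gene. For the 5 genes with reads there, the counting interval of library 2 over shGFP included 1, as at C9orf152 (ratio 0.396, interval 0.113 to 1.15).

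H1299 libraries were not used to choose the genes, and all 5 listed members were at or near 0 in them. VIL1 was listed at 0 in libraries 1 and 2 and in shGFP. KRT20 stood at 0.2 in library 1 and at 0 in library 2 and shGFP, and FER1L6 at 0.2, 0.4 and 0.2. TSPAN8 stood at 1.1, 0.2 and 0.8, and C9orf152 at 0, 0.6 and 0.8. Library 1 was the highest for TSPAN8 and KRT20, library 2 for FER1L6, and shGFP for C9orf152. ADH1C and VTCN1 are not listed for H1299, so they have no level there. None of the 5 reached the mean level of 1 needed to enter the test. The count of members at least 2-fold above both others in H1299 library 1 was therefore 0, where 55 of 16470 genes met that rule (0.334%). With no filter, limma tested KRT20, FER1L6, TSPAN8 and C9orf152 in H1299 for shMETTL3 minus shGFP. Their changes were 0.13 (SE 0.17), 0.11 (SE 0.15), -0.18 (SE 0.49) and -0.51 (SE 0.41) on the log2(level + 1) scale, with adjusted p of 0.993, 0.993, 1 and 0.993. At these levels a difference was not detectable.

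Both knockdown libraries against shGFP gave no call at any gene by limma, in A549 (0 of 17454, 0%) or H1299 (0 of 16470, 0%), at an adjusted p under 0.05. METTL3, lower in both knockdown libraries of each line, was not called either. A missing call is thus no sign of an unchanged level. Genes with an unadjusted p under 0.05 numbered 115 in A549 and 99 in H1299. Both counts lie below the share of 0.05 that evenly spread p-values would give. edgeR on the A549 reads called 0 of 16263 genes, with 111 at an unadjusted p under 0.05, also below that share. The counts of list genes passing the test were therefore 0 in each list below, and the lists are described by levels alone.

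Besides VIL1, the brush border list held 14 genes that passed the filter, and 6 of them were at least 2-fold above both other libraries, beside 2.40% of all genes, with a median of 0.71 over shGFP (log2). CDH17, the liver-intestine cadherin, stood at 371, 19.4 and 64.2 in libraries 1, 2 and shGFP. The class I myosin MYO1D stood at 70.0, 4.38 and 12.9, and MYO1A, the brush border myosin, at 6.43, 0 and 1.05. USH1C, or harmonin, a scaffold of the links between microvilli, stood at 14.3, 0.63 and 2.11. All 4 were lower in library 2 than in shGFP. Of the 14, 8 did not meet the rule. Against the mean of library 2 and shGFP, CDHR2, a protocadherin of the links between microvilli, differed by -0.74 in library 1 (log2), ezrin EZR, which many epithelia share, by 0.11, and the surface peptidases DPP4 and ANPEP by 0.41 and 0.49.

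Genes of intestinal and gastric differentiation outside the members had 15 of 23 at least 2-fold above both, beside 2.40% of all genes. Their median was 1.48 over shGFP. With no filter on low values, 17 of the 34 genes of this list found in A549 met the rule. The largest differences were at the adhesion molecules CEACAM6 (10972, 114 and 642) and CEACAM5 (519.6, 5.63 and 20.3). The mucus protein FCGBP stood at 2780.4, 107 and 435, and the disulfide isomerase AGR2 at 4548, 304 and 958. Among genes that did not meet the rule, ANXA10 differed by -0.98 in library 1 from the mean of library 2 and shGFP (log2). On that measure CLDN18, VSIG1 and GCNT3 differed by 0.21, 0.46 and 0.48. Other genes that define gut epithelium were at or near 0. The fatty acid binding protein FABP1, the surface antigen GPA33 and the trefoil factor TFF3 each stood at 0.36 in library 1 and at 0 in library 2 and shGFP, which is 1 read. The lectin REG4 stood at 0.71, 0 and 0, and FABP2 at 1.43, 1.56 and 3.42. CDX2, the master regulator of intestinal identity, had 7.86, 7.19 and 7.63, with no high level in library 1. The label of gut-type cells was thus met by part of these markers only.

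Intestinal transcription factors had smaller differences, with 3 of 17 at least 2-fold above both, beside 2.40% of all genes, and a median of 0.62 over shGFP. FOXA3 stood at 53.6, 8.75 and 14.5 in libraries 1, 2 and shGFP. The nuclear receptor HNF4A stood at 60.7, 11.6 and 34.2, and its relative HNF4G at 26.4, 5.31 and 14.2. Both were above shGFP in library 1 and below it in library 2 and did not meet the 2-fold rule.

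Of 7 airway markers, with a median of 2.10 over shGFP, 4 met the rule, beside 2.40% of all genes. They were the secreted BPIFB1 (111, 0.63 and 1.05), the mucins MUC5AC (9931, 857 and 2309) and MUC5B (3074, 140.0 and 699) and the basal cell factor TP63 (27.9, 5.0 and 4.74). The other 3 did not. Against the mean of library 2 and shGFP, the ciliated cell factor FOXJ1 differed by 0.13 in library 1 (log2), the basal keratin KRT5 by 0.65 and the cytochrome CYP2F1 by 0.70. Of 10 genes of simple epithelium, 3 met it, namely KRT19, the adhesion molecule EPCAM (75.4, 14.1 and 22.6) and the claudin CLDN4 (73.2, 16.3 and 22.4). The cadherin CDH1 stood at 646, 284 and 386. Among 8 alveolar type 2 markers 1 met it, SFTPD at 3.93, 0.94 and 1.05. SFTPB stood at 5.71, 8.13 and 11.6, the lipid transporter ABCA3 at 566, 425 and 405, and LAMP3 at 9.29, 11.6 and 13.2. The lung regulator NKX2-1 had 1 read or fewer per library in A549 (0.36, 0.31 and 0).

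Lists of markers of other cell types were short, and 2 of their 11 genes with a mean of at least 1 met the rule, beside 2.40% of all genes. Of 5 fibroblast markers 1 met it, COL3A1 (9.64, 3.13 and 1.58). All 7 fibroblast markers found in A549, with those below the filter, summed to 126, 98.4 and 92.1 in libraries 1, 2 and shGFP. COL1A1 stood at 91.8, 72.2 and 59.7, PDGFRA at 1.07, 2.5 and 3.42, and LUM at 1.07, 2.19 and 0. The collagen COL1A2 was at 0, 0 and 0.26. Of 4 endothelial markers 1 met it, the cadherin CDH5 (11.1, 0 and 1.84). All 6 endothelial markers found in A549 summed to 30.4, 21.6 and 22.1. The receptor KDR stood at 5.0, 2.81 and 1.58, CLDN5 at 0.71, 1.25 and 1.32, and PECAM1 at 12.9, 17.2 and 16.6. Of 2 leukocyte markers none met it, CD14 (7.86, 4.06 and 8.68) and CD68 (168, 177 and 158). All 5 leukocyte markers found in A549 summed to 176, 181 and 168, and the leukocyte antigen PTPRC was at 0, 0 and 0.26. Their part in the members' levels was not tested.

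**Figure D3:**
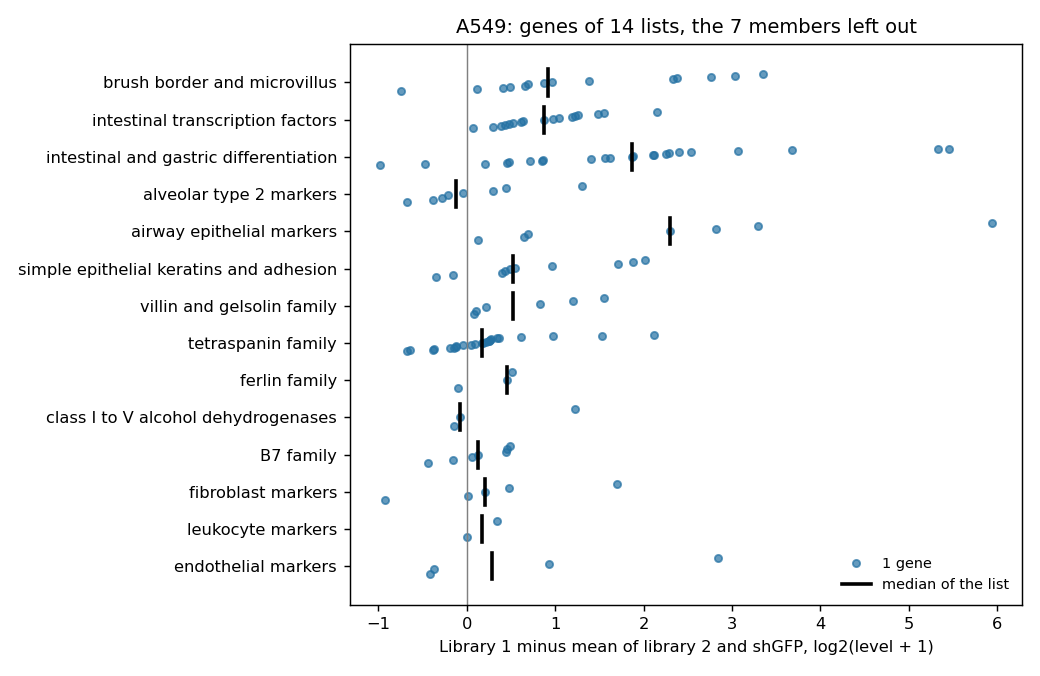
Difference between A549 library 1 and the mean of library 2 and shGFP (log2(level + 1)) for each gene of 14 lists with a mean level of at least 1, the members left out; bars are medians. The gut differentiation and airway lists have 15 of 23 and 4 of 7 at least 2-fold above both, beside 2.40% of all genes, while alveolar type 2 markers lie around 0.

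The genes closest to the members' pattern were found by their distance, over 3 A549 libraries, from the members' median differences to shGFP in libraries 1 and 2. The members' own distances ran from 0.03 for VTCN1 to 1.73 for FER1L6, and 54 other genes lay within that range. Closest was CEACAM1, an adhesion molecule of epithelia, at 0.23, with levels of 56.1, 2.81 and 3.16 in libraries 1, 2 and shGFP. GJB1, the gap junction protein connexin 32, followed at 0.31 (13.9, 0 and 0.26). FRY, a scaffold of polarised cells, stood at 30.4, 1.88 and 2.63. The secreted protease inhibitors CST4 (14.6, 0.63 and 0.79) and CST1 (101.1, 8.44 and 5.79) are near copies of one family that may share reads. The vitamin B12 carrier TCN1 stood at 33.2, 3.44 and 2.63, and HABP2, a serine protease of plasma, at 31.4, 1.56 and 3.16. ST6GALNAC1, which makes the sialyl-Tn sugar, stood at 10.4, 0.63 and 0.26, the growth factor HGF at 6.43, 0 and 0, and the nuclear protein TOX3 at 50.7, 2.19 and 5.26. Of these 10, 3 are listed in H1299. FRY stood there at 8.0, 1.2 and 1.2, HGF at 2.2, 1.0 and 2.0, and CEACAM1 at 0, 0 and 0.2.

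**Figure D4:**
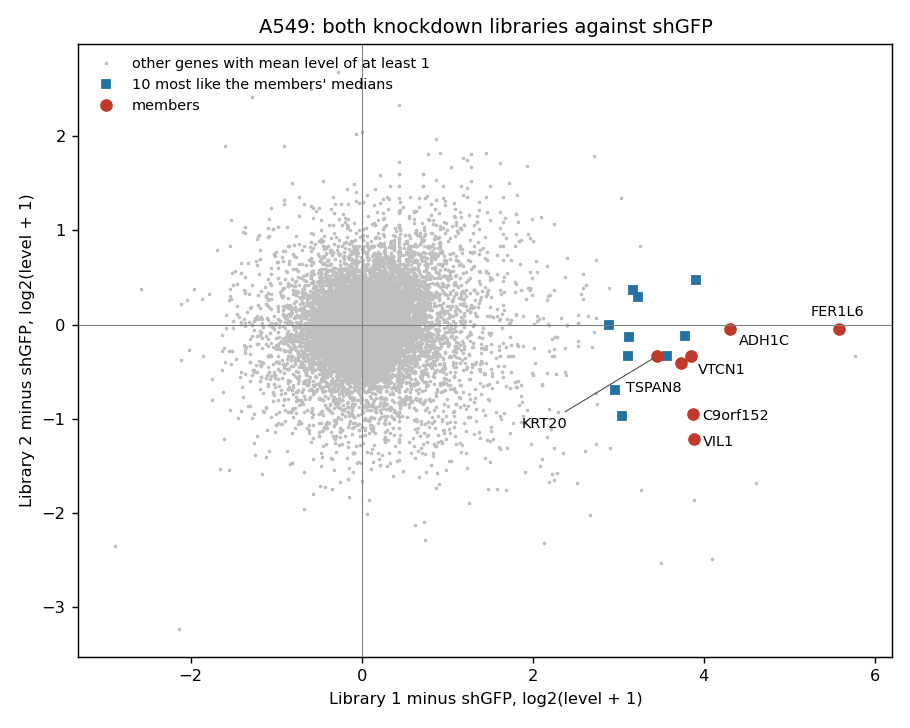
Difference from shGFP in A549 library 1 (horizontal) and library 2 (vertical) on the log2(level + 1) scale, for all 17454 genes with a mean level of at least 1, with the members and the 10 genes nearest their medians. The members lie between 3.45 and 5.58 on the horizontal axis and between -1.21 and -0.04 on the vertical.

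The members lie on 7 different chromosomes in the RefSeq annotation (GRCh38.p14). Of the 3 protein-coding genes on each side of every member, 25 of 42 had a mean level of at least 1 in A549. Among those 25, 2 were at least 2-fold above both others in library 1, beside 2.40% of all genes. These, named after their values were seen, were the annexin ANXA13, 2 genes from FER1L6, at 156, 21.3 and 45.0 in libraries 1, 2 and shGFP, and the keratin KRT12, next to KRT20, at 4.29, 0.94 and 0.53. ANXA13 is also counted in the gut differentiation list above.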

How the data were processed

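The authors deposited RNA-seq signal per gene, per library, in 1 table per line. A TruSeq Stranded mRNA kit was used on poly(A)-selected RNA, per the labels' protocols. Per the submitters' processing notes, TopHat, Bowtie and hg19 were used. Read counter, annotation, strand setting and scaling are not given in the sources used here. Tested on the A549 values, 100% are whole reads divided by 1 factor within their 2 decimals. H1299 values have 1 decimal, and reads were not recovered there. Fewer reads at a gene give wider counting intervals, stated beside the ratios.

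From these, differences of log2(level + 1) were computed, and genes with a mean level of at least 1 in a line were kept. In R 4.3.3, limma 3.58.1 (intensity trend, 1 residual degree of freedom, Benjamini-Hochberg) compared shMETTL3 with shGFP in each line. The p-values cover only the spread between these libraries, which may be technical. edgeR 4.0.16 on A549 reads was added after seeing the data. Counting intervals at 95% are exact Poisson, and those of ratios come from exact Clopper-Pearson bounds. The code was tested on simulated data. The members and the 14 lists were chosen with earlier results of these data known. Named were the members, METTL3, the 10 genes nearest the members' medians and, per list, up to 4 genes with the largest difference of library 1. A few others were added after their values were seen, namely reference genes near 0, KRT7, KRT8, KRT18, CDX2, USP37, the antisense genes and neighbours. So were brush border, gut differentiation and airway genes that did not meet the rule. Values of some listed genes are not reported here. Peaks were not used, as gene positions of their build were not given here.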

Additional observations from a re-analysis of the deposited data

Results flagged for a closer look

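SFTPB, ABCA3 and CLDN5, which are markers on the lists and not members, lay on opposite sides of shGFP in the knockdown libraries of A549 and of H1299. The mean log2 difference from shGFP in A549, minus that in H1299, was -0.83 for SFTPB, 0.46 for ABCA3 and -0.66 for CLDN5. Tested as an interaction of line and knockdown by limma over all 6 libraries, each had an adjusted p of 1, so that the differences failed the correction. SFTPB had -0.91 and -0.46 in A549 libraries 1 and 2, and 0.15 and 0.15 in those of H1299. For ABCA3 the values were 0.48 and 0.07 in the A549 libraries, against -0.01 and -0.36 in the H1299 libraries. For CLDN5 they were -0.44 and -0.04 in the A549 libraries, against 0.67 and 0.16 in the H1299 libraries. Levels of CLDN5 in A549 were low (0.71, 1.25 and 1.32 in libraries 1, 2 and shGFP), as were those of SFTPB in H1299 (4.2, 4.2 and 3.7). ABCA3 in H1299 library 1 was nearly level with shGFP (822.7 against 829.6).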

How the results depend on the processing

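In A549, 7 of 7 members were at least 2-fold above both other libraries in library 1 with a pseudocount of 0.1, a 1.5-fold or 4-fold rule, median centring, no filter and a mean of at least 5. In H1299 no member passes a filter, so that the count there is 0 by construction under each filtered alternative, and with no filter it was also 0. Without A549 library 1, a choice made after seeing the data, the count of members at least 2-fold above shGFP was 0 of 7 in library 2; the choice of genes high in library 1 fixes that 0, which is no check. It fixes the 7 of 7 likewise. In both lines, 0 genes passed limma with a pseudocount of 0.1, no filter, a mean of at least 5, median centring, no trend, all 6 libraries in the fit, and library 1 or 2 left out. With the knockdown number as a replicate block in the fit of all 6 libraries, 1 gene passed in A549 (VGF, log2 -2.61, adjusted p = 0.000263 by limma) and 0 in H1299. VGF, a neuropeptide precursor, is no member. The members have no place in that fit, since none passes the filter in H1299. The paired fit rests on numbers whose meaning the labels do not give; across 15546 genes, library 1 minus library 2 in A549 and in H1299 had a correlation of 0.237, which with 2 pairs does not decide the pairing. With a 4-fold rule, 7 of the 14 lists lost more than the set margin of 1.5 times in their counts, to 0 for the transcription factors, simple epithelium, villin, tetraspanin, alveolar type 2 and fibroblast lists and to 6 for gut differentiation; the airway and brush border counts stayed within it. With a 1.5-fold rule the counts of 3 lists moved past that margin, to 9 for the transcription factors, 1 for the alcohol dehydrogenases and 2 for the endothelial markers, and with a pseudocount of 0.1 the alcohol dehydrogenase count was 1. Requiring a mean level of 5 brought the counts of 1 in the alveolar type 2, fibroblast and endothelial lists to 0, and with no filter the alcohol dehydrogenase count became 2, as the low genes left or entered. Depth limits the low side: the levels of library 2 and shGFP rest on 0 to 16 reads per member. The alternatives for m6A peaks over member genes were not run.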

Other observations

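FRY was 1 of the 10 genes nearest to the members in A549, and in H1299, which was not used to find it, library 1 again stood above both others (8.0 in library 1, 1.2 in library 2 and 1.2 in shGFP). Of 2 such genes with a mean level of at least 1 in H1299, FRY met the 2-fold rule there and HGF did not, where 0.334% of all genes did. Both lines have 1 library of that number, so the difference has no replicate check. In the villin and gelsolin list 1 of 7 genes met the rule in H1299, the actin-capping CAPG, at 2.4 in library 1, 0.4 in library 2 and 0.6 in shGFP. These levels are low, and CAPG passed the filter there only through library 1, so that nothing is read from this count. In the other lists no gene met the rule in H1299. In A549 CAPG stood at 193 in library 1, 89.4 in library 2 and 131 in shGFP, and did not meet the rule.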
